A study of Mus musculus with 11 samples.

Results

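The genes described here encode succinate dehydrogenase, which is complex II of the mitochondrial respiratory chain, and the proteins that assemble it. They are the 4 subunit genes Sdha, Sdhb, Sdhc and Sdhd and the 4 assembly factor genes Sdhaf1, Sdhaf2, Sdhaf3 and Sdhaf4, taken by gene symbol alone. All 8 were found among the 24421 genes of the count table, and all 8 passed the filter on low counts that kept 13711 genes for testing. RNA was measured in Ly49H+ natural killer (NK) cells, the NK cells whose receptor binds a protein encoded by mouse cytomegalovirus (MCMV). The cells came from spleens of C57BL/6 mixed bone marrow chimeras, mice whose blood cells derive from both wild-type (WT, CD45.1) and LDHA-deficient (KO, CD45.2) donors, with in vivo MCMV infection as the treatment. The sort kept NK1.1+ DX5+ Ly49H+ cells that lacked TCRb and CD3e, and their RNA was amplified with the SMART-seq V4 kit. LDHA is the lactate dehydrogenase subunit that converts pyruvate to lactate, and the labels name neither the deleted part of the gene nor a Cre driver. By title the 11 libraries are WT D0 (2, numbered 2 and 3), KO D0 (3), WT D2 (3) and KO D2 (3). The label for days post infection reads day 2 in all 11, so whether the D0 mice were infected is not settled, and D0 and D2 are used as the titles' terms. Libraries titled WT carry a genotype label that lists both genotypes, so they were grouped by title. Each sample is given as 1 mouse, and the labels do not say whether a KO and a WT library share a host.

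Succinate dehydrogenase works both in the citric acid cycle, where it oxidises succinate to fumarate, and in the respiratory chain, where it passes the electrons on to ubiquinone. Sdha carries the covalently bound flavin that takes electrons from succinate, Sdhb relays them through its iron-sulfur clusters, and Sdhc and Sdhd anchor the enzyme in the inner membrane and form the site that reduces ubiquinone. Assembly needs helpers: Sdhaf2 promotes attachment of the flavin to Sdha, Sdhaf4 binds flavinylated Sdha before it joins Sdhb, and Sdhaf1 and Sdhaf3, small proteins of the LYR motif family, act on the maturation of Sdhb. In activated lymphocytes the complex links fuel oxidation to the level of succinate, which inhibits dioxygenases that depend on 2-oxoglutarate.

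Sdhaf1 and Sdhaf3 encode related factors, gave opposite results between D0 and D2 in KO cells, and differ in base composition. Their GC-richest stretches of 100 coding bases are printed 5′ to 3′ in the sense of the gene (GENCODE M21 transcripts, GRCm38), with capitals marking unbroken runs of at least 6 G or C.
Sdhaf1 (chr7:30322186-30322285, minus strand): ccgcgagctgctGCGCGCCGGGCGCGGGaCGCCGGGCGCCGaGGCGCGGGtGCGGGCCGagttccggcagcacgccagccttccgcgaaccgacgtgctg
Sdhaf3 (chr6:6956029-6956128, plus strand): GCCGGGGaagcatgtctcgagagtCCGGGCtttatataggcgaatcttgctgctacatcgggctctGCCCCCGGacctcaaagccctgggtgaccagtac
The Sdhaf1 stretch holds 81% G or C and the Sdhaf3 stretch 60%. Sdhaf1 is a gene of 1 exon (RefSeq, GRCm38.p6, chr7:30321409-30322375, minus strand, coding length 354 bases), and the printed stretch runs from coding base 45 to 144. Over the whole transcript Sdhaf1 reached 81% in its richest 100 bases, and 108 of its 2391 such windows held at least 75%. The other 7 genes peaked between 59% (Sdhaf2) and 71% (Sdha and Sdhb), so Sdhaf1 was the only one of the 8 with a window at or above 75%.

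Sdhb and Sdhd rose together from D0 to D2, and the 250 bases before their transcription starts are printed here (RefSeq, GRCm38.p6), with capitals marking a match to a searched motif.
Sdhb (chr4:140961021-140961270, plus strand): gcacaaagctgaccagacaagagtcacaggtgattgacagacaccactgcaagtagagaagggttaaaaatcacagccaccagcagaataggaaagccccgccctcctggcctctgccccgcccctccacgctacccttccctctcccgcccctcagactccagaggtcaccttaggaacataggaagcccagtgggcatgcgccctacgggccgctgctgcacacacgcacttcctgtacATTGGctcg
Sdhd (chr9:50603850-50604099, minus strand): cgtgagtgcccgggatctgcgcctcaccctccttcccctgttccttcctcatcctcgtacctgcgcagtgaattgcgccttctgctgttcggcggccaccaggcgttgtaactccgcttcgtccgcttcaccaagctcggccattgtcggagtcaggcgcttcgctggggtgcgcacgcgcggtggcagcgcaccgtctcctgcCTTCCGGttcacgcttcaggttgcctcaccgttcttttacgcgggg
RefSeq promoter entries were matched for 7 of the 8 genes, without Sdhc. In windows from 250 bases before to 50 after the start, read on both strands, the ETS motif CCGGAAG occurred in 5 of the 7 (Sdhb, Sdhd, Sdhaf1, Sdhaf2 and Sdhaf3), against 8.86% of 32851 promoters in the table. In Sdhd the match begins 46 bases before the start, and in Sdhb it lies 7 bases into the transcript, outside the printed stretch. The CCAAT box occurred in 3 of 7 (Sdha, Sdhb and Sdhaf1), against 37.4% of all promoters. The NRF1 motif, GCGCA followed by TGCGC, and the E-box CACGTG occurred in 0 of 7, against 0.971% and 7.15%. A match describes these letters and is not evidence of binding.

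Libraries held between 19452460 and 27992092 counts. Levels are given as CPM, counts scaled to library size, and 3 counts, taken as the floor of detection, equal 0.107 to 0.154 CPM. Ldha, the check on the genotype labels, stood at 91.1 to 115 CPM in the 6 KO libraries, at 563 and 656 CPM in WT D0 and at 2753 to 3101 CPM in WT D2. All 8 NK markers exceeded 1 CPM in every library. Summed CPM of the markers of other cells reached 9.15 for B cells (4 genes), 30.5 for T cells (6 genes), 64.96 for myeloid cells (6 genes) and 703 for erythroid cells (4 genes). The T cell gene Cd5 was at 0 in 1 library, and the neutrophil genes S100a8 and S100a9 were each at 0 in 4. In bulk RNA, fewer cells of a type and less RNA per cell cannot be told apart.

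Between D0 and D2, the RNA of 3 of the 4 subunits rose in both genotypes, while Sdha did not change past the threshold. Sdhb rose the most among the subunits, 2.05-fold in WT and 2.02-fold in KO, and Sdhc and Sdhd rose between 1.53-fold and 1.70-fold. In WT the members called were these 3 of 8, and in KO they were 6 of 8, since Sdhaf2 and Sdhaf3 also rose there and Sdhaf1 fell. Called means a Benjamini-Hochberg adjusted p under 0.05 in edgeR's quasi-likelihood test over all 13711 genes. Against this stands a large background: 53.5% of all genes were called between D0 and D2 in WT (27.5% higher, 26% lower) and 61.4% in KO (27% higher, 34.5% lower). The median log2 fold change over the 8 genes was 0.45 in WT and 0.48 in KO, and over all genes -0.07 and -0.20. The p-values measure the spread between these samples.

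**Figure D1:**
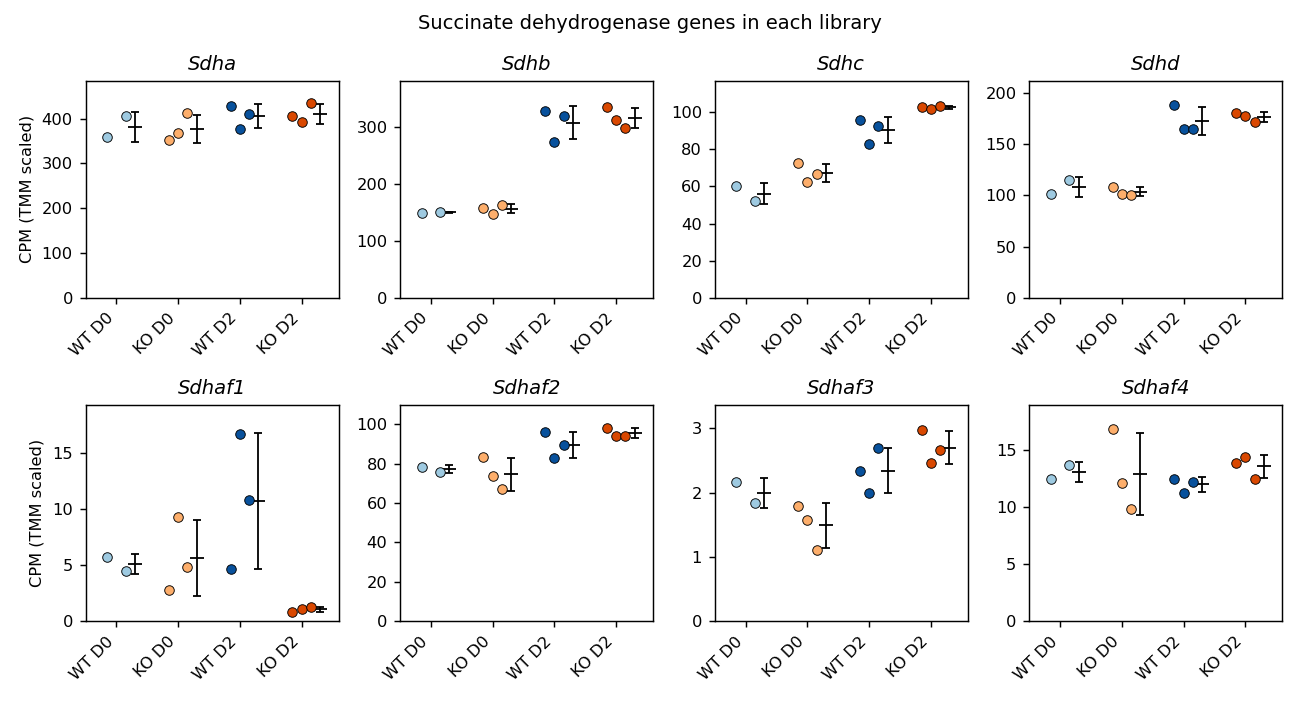
CPM (TMM scaled) of the 8 genes on the vertical axes, starting at 0, by group on the horizontal axes, with 1 point per library and bars for mean ± SD (n = 2 for WT D0, n = 3 elsewhere). Every D2 library of Sdhb, Sdhc and Sdhd lies above every D0 library, and the 3 KO D2 libraries of Sdhaf1 lie between 0.819 and 1.31 CPM, below all others.

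Sdhb, the iron-sulfur subunit, had 149 and 151 CPM in the WT D0 libraries and 158, 147 and 163 CPM in KO D0. At D2 it had 327, 273 and 319 CPM in WT and 333, 312 and 298 CPM in KO. The lowest D2 library thus lay above the highest D0 library, and the genotypes overlapped at both days. The log2 fold change from D0 to D2 was 1.03 in WT (SE 0.12, edgeR adjusted p = 1.238e-05) and 1.01 in KO (SE 0.11, edgeR adjusted p = 3.582e-06). The difference between these changes was -0.02 (95% interval -0.36 to 0.32).

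Sdhc, one of the membrane anchors, had 60.2 and 52.1 CPM in WT D0 and 72.6, 62.5 and 66.6 CPM in KO D0. At D2 it had 95.9, 82.8 and 92.5 CPM in WT and 103, 102 and 103 CPM in KO. D0 and D2 libraries did not overlap in either genotype, and the rise was 0.69 on the log2 scale in WT (SE 0.13, edgeR adjusted p = 0.0005134) and 0.61 in KO (SE 0.11, edgeR adjusted p = 0.0003763). The KO libraries lay above the WT libraries without overlap at both days, but the difference was not called at D0 (log2 0.26, SE 0.12, edgeR adjusted p = 0.9992) or at D2 (0.18, SE 0.11, edgeR adjusted p = 0.3561). Sdhc lies on chromosome 1 (chr1:171129157-171150640), 33.0 Mb from Ptprc, the CD45 gene whose alleles mark the donors. Sdhaf4 is on the same chromosome, 114 Mb from Ptprc. Any bearing of these positions on the values was not tested.

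Sdhd, the other anchor, had 101.1 and 115 CPM in WT D0 and 109, 102 and 100.1 CPM in KO D0. The D2 libraries had 188, 165 and 165 CPM in WT and 180.2, 178 and 171 CPM in KO. Again no D2 library overlapped a D0 library, with log2 fold changes of 0.68 in WT (SE 0.12, edgeR adjusted p = 0.0003194) and 0.77 in KO (SE 0.10, edgeR adjusted p = 3.065e-05). The rises of Sdhb, Sdhc and Sdhd stayed past the threshold in both genotypes in each of the 11 fits that left out 1 library and in the 7 other settings.

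Sdha, the flavin subunit, had 358 and 405 CPM in WT D0, 352, 367 and 412 CPM in KO D0, 429, 376 and 410 CPM in WT D2 and 406, 391 and 435 CPM in KO D2. All 4 groups overlapped. The log2 fold change from D0 to D2 was 0.09 in WT (95% interval -0.17 to 0.35) and 0.12 in KO (-0.11 to 0.35), so that a rise of the size seen for Sdhb lies outside both intervals.

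On a per-length scale, used to set levels of different genes side by side, Sdha and Sdhb stood level at D0 and parted at D2. The scale takes the length of 1 GENCODE transcript per gene, such as 3171 bases for Sdhc and 4323 for Sdhaf3. Which transcripts these cells make was not measured, so the order of the genes depends on that choice. In CPM per kb of transcript, WT D0 cells had 132 ± 11.5 for Sdha and 131 ± 0.861 for Sdhb (SD, n = 2), with overlapping values. WT D2 cells had 140 ± 9.21 for Sdha and 269 ± 25.5 for Sdhb, and KO D2 cells 142 ± 7.73 and 275 ± 15.6 (SD, n = 3 each). The ratio of Sdhb to Sdha was between 0.944 and 1.14 in the 5 D0 libraries and between 1.74 and 2.08 in the 6 D2 libraries. Sdhd followed with 87.8 ± 8.02 in WT D0 and 140 ± 10.8 in WT D2, a D2 level that overlapped that of Sdha. Sdhc was lower, at 17.7 ± 1.81 in WT D0 and 28.5 ± 2.14 in WT D2, near the assembly factor Sdhaf2 (25.9 ± 0.658 and 29.95 ± 2.204). Sdhaf4 stood at 19.1 ± 1.30 and 17.6 ± 0.945, Sdhaf1 at 2.05 ± 0.367 and 4.30 ± 2.42, and Sdhaf3 at 0.463 ± 0.0541 and 0.542 ± 0.0812. The length used for Sdhaf1 was that of its GENCODE transcript, 2490 bases; with the RefSeq length of 967 bases its mean was 5.28 in WT D0 and 11.1 in WT D2.

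**Figure D2:**
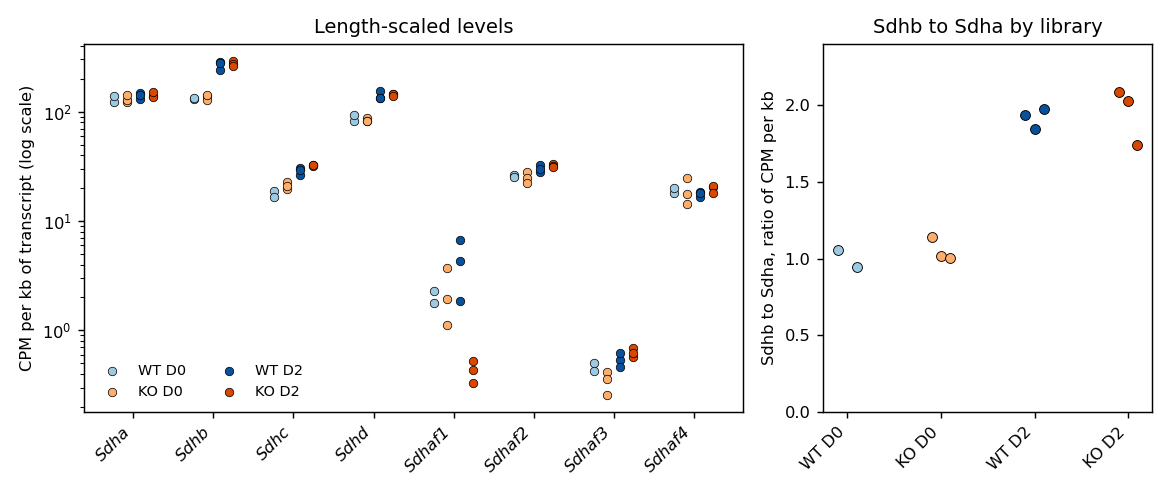
Left, CPM per kb of transcript (log axis) of the 8 genes, 1 point per library, coloured by group; right, the ratio of Sdhb to Sdha in each library on an axis from 0. The ratio is 0.944 to 1.14 at D0 and 1.74 to 2.08 in every D2 library.

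Of the assembly factors, Sdhaf1 was the 1 called between genotypes, at D2. Sdhaf1 had 5.75 and 4.46 CPM in WT D0 (178 and 141 counts) and 2.77, 9.32 and 4.85 CPM in KO D0 (74, 267 and 105 counts). At D2 it had 4.63, 16.7 and 10.8 CPM in WT (93, 369 and 261 counts) and 0.819, 1.09 and 1.31 CPM in KO (16, 23 and 29 counts). The KO D2 libraries lay below all 8 others, the WT D2 libraries spread widely, and the genotypes overlapped at D0.

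At D2, Sdhaf1 in KO was 10.1% of its WT level, a log2 fold change of -3.31 (SE 0.52, 95% interval -4.44 to -2.18, edgeR adjusted p = 0.0008266). It was the 1 member of 8 called in this comparison, where 16.1% of all genes were called and 14.5% were lower in KO. At D0 the log2 fold change was 0.15 (SE 0.51, edgeR adjusted p = 0.9992). There 0 of the 8 genes were called by edgeR, 0 by DESeq2, and 0 had an unadjusted p under 0.05, against 0.153% of all genes called (0.0948% higher, 0.0583% lower) and 597 genes with an unadjusted p under 0.05 overall. From D0 to D2 Sdhaf1 fell by 2.39 on the log2 scale in KO (SE 0.52, edgeR adjusted p = 0.001386). In WT the log2 fold change was 1.07 (SE 0.51, edgeR adjusted p = 0.09756), and it was past the threshold without WT D2 replicate 1 (1.38, edgeR adjusted p = 0.0205). These comparisons share libraries, so their values stand side by side and do not support each other.

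The test of the difference between the genotypes' D0 to D2 changes gave -3.46 for Sdhaf1 (SE 0.74, 95% interval -5.05 to -1.86, edgeR adjusted p = 0.02195). It was the 1 of 8 genes called, where 5.84% of all genes were called and 5.72% were lower. This call was lost in 7 of the 11 fits that left out 1 library: without KO D0 replicate 2 (-2.88, edgeR adjusted p = 0.0653), KO D2 replicate 1 (-3.30, 0.0777), replicate 2 (-3.46, 0.0693) or replicate 3 (-3.63, 0.0529), WT D0 replicate 2 (-3.64, 0.117) or replicate 3 (-3.29, 0.0856), and WT D2 replicate 3 (-3.45, 0.0737). The call at D2 alone held in all 11 such fits, with log2 fold changes from -3.69 to -2.84.

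**Figure D3:**
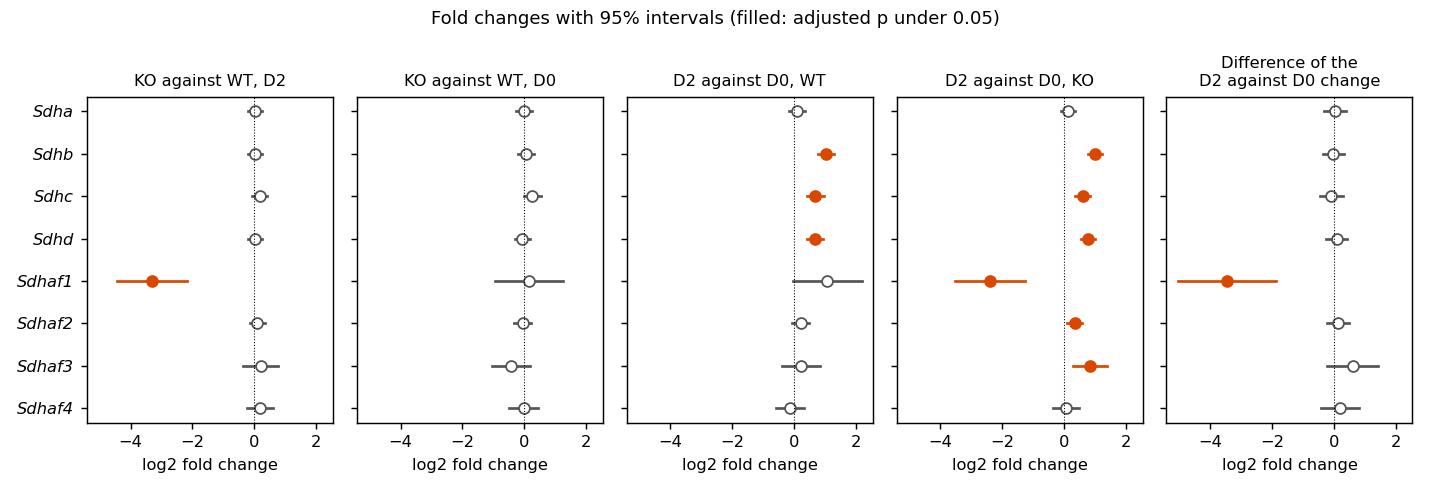
Log2 fold changes of the 8 genes (points) with 95% intervals (lines) in the 5 comparisons; filled points have an edgeR adjusted p under 0.05. Sdhaf1 is filled and negative at D2 (-3.31), from D0 to D2 in KO (-2.39) and in the difference (-3.46), and Sdhb, Sdhc and Sdhd are filled and positive from D0 to D2 in both genotypes.

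Sdhaf1 belongs to a class of transcripts with a GC-rich segment, many of which were lower in KO at D2. Of the 5309 tested genes whose transcript has a window of 100 bases with at least 75% G or C, 1767 were lower and 30 higher in KO at D2 (33.3% lower, median log2 fold change -0.37). Of 7510 genes without one, 187 were lower and 179 higher (2.49% lower, median 0.11). Within the first class, 22 of 5309 genes, Sdhaf1 included, had a log2 fold change as low as that of Sdhaf1. A GC score per library was the median deviation of log2 CPM from the gene mean in the GC-rich genes minus that in the others. The KO D2 libraries scored -0.49 ± 0.0493 and those of WT D2 0.08 ± 0.205 (SD, n = 3 each), and both D0 groups averaged 0.24. WT D2 replicate 1, with the lowest Sdhaf1 of its group, also had its lowest score, -0.15, which is 1 library. All 3 KO D2 libraries scored from -0.55 to -0.46, so a GC trend of the libraries and an effect of genotype at D2 cannot be told apart. The cause of the trend was not tested. With an offset per library for its trend with GC, Sdhaf1 at D2 stood at -2.58 (SE 0.43, edgeR adjusted p = 0.00183), and from D0 to D2 in KO at -1.57 (SE 0.43, edgeR adjusted p = 0.0063). The difference between genotypes was then -2.70 (SE 0.61, edgeR adjusted p = 0.0538), no longer called.

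**Figure D4:**
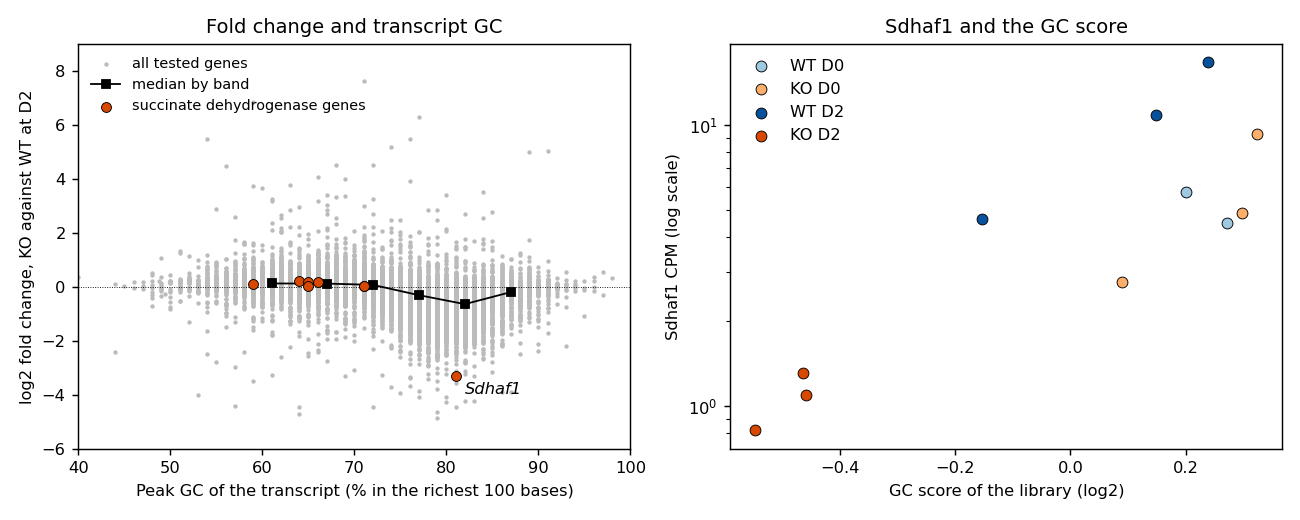
Left, log2 fold change of KO against WT at D2 against the GC share of the richest 100 bases of the transcript (%), with all tested genes in grey, medians by band of GC as squares and the 8 genes in orange; right, Sdhaf1 CPM (log axis) against the GC score of each library. Sdhaf1 lies at 81% and -3.31, below the medians of all bands, and the KO D2 libraries have both the lowest scores and the lowest Sdhaf1.

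Reads of Sdhaf1 have a further limit. In GENCODE its transcript overlaps the antisense gene E130208F15Rik over 1733 of 2490 exonic bases. Under that symbol the antisense gene is not in the count table, and whether it has counts there under another name was not checked. The SMART-seq V4 kit does not mark strand, so reads from either gene cannot be told apart there. The nearest tested neighbours of Sdhaf1 were not called between genotypes at D2: Syne4 had a log2 fold change of -0.96 (edgeR adjusted p = 0.142) and Tyrobp 0.30 (edgeR adjusted p = 0.117). Sdhaf1 shares chromosome 7 with Ldha, at a distance of 16.5 Mb, and any bearing of this on its values was not tested.

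Sdhaf2, which promotes flavin attachment to Sdha, had 78.5 and 75.7 CPM in WT D0 and 83.5, 73.5 and 66.9 CPM in KO D0. The D2 libraries had 95.9, 82.8 and 89.2 CPM in WT and 98.2, 94.2 and 93.8 CPM in KO. D0 and D2 did not overlap in either genotype. It rose by 0.35 on the log2 scale in KO (SE 0.11, edgeR adjusted p = 0.01537), and its change in WT was not called (0.21, SE 0.13, edgeR adjusted p = 0.1777). The difference between these changes was 0.14 (95% interval -0.22 to 0.51). The call in KO was lost without KO D0 replicate 2 (edgeR adjusted p = 0.0823) or replicate 3 (0.101), without KO D2 replicate 1 (0.0941), replicate 2 (0.0579) or replicate 3 (0.0673), and with the GC offset (0.12, edgeR adjusted p = 0.316).

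Sdhaf3, the other LYR factor, was scarce, with 24 to 67 counts per library. It had 2.17 and 1.83 CPM in WT D0, 1.80, 1.57 and 1.11 CPM in KO D0, 2.34, 1.99 and 2.69 CPM in WT D2, and 2.97, 2.46 and 2.67 CPM in KO D2. KO D2 lay above KO D0 without overlap, while the WT groups overlapped. At D0 the KO libraries lay below the WT libraries without overlap, and the difference was not called (-0.41, 95% interval -1.03 to 0.20). The log2 fold change from D0 to D2 was 0.85 in KO (SE 0.26, edgeR adjusted p = 0.01276) and 0.23 in WT (SE 0.28, edgeR adjusted p = 0.5267), with a difference of 0.62 (95% interval -0.21 to 1.45). The rise in KO was not called without KO D0 replicate 3 (0.62, edgeR adjusted p = 0.0667) or KO D2 replicate 1 (0.72, edgeR adjusted p = 0.0576).

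Sdhaf4, which binds flavinylated Sdha, had 12.4 and 13.7 CPM in WT D0 and 16.9, 12.1 and 9.84 CPM in KO D0. At D2 it had 12.5, 11.3 and 12.2 CPM in WT and 13.9, 14.4 and 12.4 CPM in KO. The groups overlapped in all 4 comparisons between them, and none was called. The log2 fold changes were -0.12 in WT and 0.07 in KO from D0 to D2, and -0.01 at D0 and 0.18 at D2 between genotypes. An antisense model, Gm26524, covers 111 of 874 exonic bases of Sdhaf4, and 12.6% of the 31-base stretches of the Sdhaf4 transcript occur in it.

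No subunit was called between genotypes at either day, where 16.1% of all genes were called at D2 and 0.153% at D0. All 4 subunits are among the 7510 genes without a GC-rich segment, of which 187 were lower and 179 higher in KO at D2. KO differed from WT by a log2 fold change of 0.02 for Sdha (95% interval -0.21 to 0.25), 0.04 for Sdhb (-0.19 to 0.26), 0.18 for Sdhc (-0.06 to 0.42) and 0.03 for Sdhd (-0.19 to 0.25). At D0 they were -0.02 for Sdha (-0.27 to 0.24), 0.06 for Sdhb (-0.20 to 0.31), 0.26 for Sdhc (-0.01 to 0.53) and -0.06 for Sdhd (-0.31 to 0.19). Each interval reaches both sides of 0 and leaves out a difference as large as the D0 to D2 rise of Sdhb. The median over the 8 genes was 0.07 at D2 and -0.01 at D0, and over all genes 0.01 and 0.02.

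Of the summed markers of other cells, those of myeloid cells did not overlap between days. Summed myeloid markers were 23.1 to 64.96 CPM in the D0 libraries and 11.6 to 18.6 CPM at D2. Erythroid markers (77.6 to 703 CPM at D0 and 27.6 to 245 CPM at D2), T cell markers (13.7 to 23.5 and 12.3 to 30.5 CPM) and B cell markers (4.53 to 9.15 and 4.03 to 6.86 CPM) overlapped between days. The part of these cells in the changes from D0 to D2 was not tested.

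The other enzymes of the citric acid cycle form a list of 14 genes, of which 8 rose and 0 fell in WT from D0 to D2, and 9 rose and 1 fell in KO. Over all genes 27.5% rose and 26% fell in WT, and 27% rose and 34.5% fell in KO. The median of the list was 0.53 in WT and 0.67 in KO, against -0.07 and -0.20 over all genes. Idh3a, the catalytic subunit of the NAD-dependent isocitrate dehydrogenase, rose by 1.46 in WT (SE 0.11, edgeR adjusted p = 3.071e-07) and by 1.61 in KO (SE 0.10, edgeR adjusted p = 3.978e-08). Fh1, the fumarase that takes up the product of succinate dehydrogenase, rose by 1.52 in WT (SE 0.14), and Mdh2, the malate dehydrogenase of mitochondria, by 1.41 in KO (SE 0.13). At D2, 1 of the 14 was lower in KO and 0 were higher, where 14.5% of all genes were lower and 1.61% higher. That gene was Idh2, the NADP-dependent isocitrate dehydrogenase of mitochondria, with 3.55 ± 0.624 CPM in KO and 10.96 ± 2.19 in WT (SD, n = 3 each; log2 fold change -1.63, SE 0.24, edgeR adjusted p = 0.0005747). In KO, Idh2 fell by 2.50 from D0 to D2 (SE 0.24). Its transcript holds a GC-rich segment, and with the GC offset it stood at -1.30 at D2 (edgeR adjusted p = 0.00159).

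Iron-sulfur clusters reach Sdhb through the mitochondrial assembly pathway, and 8 of its 16 genes were lower in KO at D2 with 0 higher. Over all genes 14.5% were lower, and 33.3% of those with a GC-rich segment. The median over the 16 was -0.65, against 0.01 over all genes. Bola3, which acts late in cluster delivery, had 7.64 ± 1.44 CPM in KO and 34.8 ± 10.6 in WT (SD, n = 3 each; log2 fold change -2.19, SE 0.24, edgeR adjusted p = 0.0001207). All 8 are among the 10 members with a GC-rich segment, and 0 of the other 6 were called. With the GC offset 5 of the 16 were lower, where 1848 of all 13711 genes were called in either direction. The median was then -0.20 and Bola3 stood at -1.50. Fits without 1 library called 6 to 9 of the 16, and 1574 to 2408 of all tested genes in either direction. At D0, 0 of the 16 were called, against 0.153% of all genes. From D0 to D2, 6 rose and 0 fell in WT, where 27.5% of all genes rose and 26% fell. In KO 5 rose and 7 fell, where 27% of all genes rose and 34.5% fell. With the GC offset 3 rose and 3 fell in KO, where 8231 of all 13711 genes were called in either direction. In KO the scaffold gene Iscu fell by 2.43 (SE 0.40, and -1.68 with the GC offset). Hspa9, the chaperone of the pathway, rose by 2.15 in WT (SE 0.13) and by 1.59 in KO (SE 0.11).

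The flavin of Sdha depends on riboflavin. Of 5 genes for riboflavin uptake and conversion, 2 were lower in KO at D2 and 0 higher, where 14.5% of all genes and 33.3% of those with a GC-rich segment were lower. Rfk, riboflavin kinase, had 19.2 ± 1.53 CPM in KO and 87.3 ± 34.7 in WT (SD, n = 3 each; -2.19, SE 0.30, edgeR adjusted p = 0.000409). Slc25a32, a mitochondrial carrier linked to folate and FAD, had 6.99 ± 1.14 and 28.8 ± 10.6 CPM (-2.04, SE 0.26, edgeR adjusted p = 0.0002319). Both transcripts hold a GC-rich segment. With the GC offset Rfk stood at -1.51 (SE 0.22, edgeR adjusted p = 9e-04) and Slc25a32 at -1.58 (SE 0.22, edgeR adjusted p = 0.000776).

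Of 12 LYR motif genes, the family of Sdhaf1 and Sdhaf3, 2 were lower in KO at D2 and 0 higher, a share near the 14.5% of all genes that were lower. They were Sdhaf1 itself and Lyrm4, the partner of the cysteine desulfurase (-0.93, SE 0.29, edgeR adjusted p = 0.04852). The call on Lyrm4 was lost in 8 of 11 fits that left out 1 library, and with the GC offset it stood at -0.25 (edgeR adjusted p = 0.622). With that offset 1 of the 12 was lower (Sdhaf1) and 1 higher (Ndufb9, a subunit of complex I, 0.48, edgeR adjusted p = 0.0127). Over all 13711 genes 1848 were then called in either direction. With the offset and the replicate block 1 of the 12 was lower and 3 were higher, where 3231 of all genes were called in either direction. From D0 to D2, 5 rose and 1 fell in WT (27.5% and 26% of all genes), and 5 rose and 3 fell in KO (27% and 34.5%). With the offset 7 rose and 3 fell in KO, where 8231 of all genes were called in either direction. Ndufb9 rose by 0.84 in WT (SE 0.13) and by 0.78 in KO (SE 0.11).

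Other enzymes feed electrons to the same ubiquinone pool, and 1 of 5 tested was lower in KO at D2, a share near the 14.5% of all genes. Prodh, proline dehydrogenase, had 20.03 ± 5.396 CPM in KO and 37.8 ± 9.01 in WT (-0.92, SE 0.24, edgeR adjusted p = 0.02011). This call was lost without KO D2 replicate 1 (edgeR adjusted p = 0.0895), WT D2 replicate 2 (0.0935) or WT D2 replicate 3 (0.0691). From D0 to D2, 3 rose and 1 fell in WT (27.5% and 26% of all genes), and 2 rose and 1 fell in KO (27% and 34.5%). Gpd2, the glycerol phosphate dehydrogenase of mitochondria, rose by 0.61 in WT (SE 0.13) and by 0.66 in KO (SE 0.11). Sqor, which oxidises sulfide, fell by 2.87 in WT (SE 0.33) and by 2.12 in KO (SE 0.30). Chdh was not tested. Of 13 genes for ubiquinone synthesis, 8 rose and 4 fell in WT (27.5% and 26% of all genes) and 7 rose and 4 fell in KO (27% and 34.5%), so that the share that fell was near that of all genes. Coq4 was among those that rose (2.87, SE 0.32 in WT and 1.89, SE 0.26 in KO). At D2, 1 of the 13 was lower in KO, against 14.5% of all genes. This was Pdss1, which makes the side chain of ubiquinone (-0.91, SE 0.20, edgeR adjusted p = 0.005934). With the GC offset it stood at -0.60 and was not called (edgeR adjusted p = 0.0801).

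The last list held genes for succinate transport and sensing, itaconate synthesis and the prolyl hydroxylases that act on HIF1A. Of 6 tested genes 2 were lower in KO at D2, where 14.5% of all genes and 33.3% of those with a GC-rich segment were lower. Both hold such a segment. Hif1a had 145 ± 38.1 CPM in KO and 496 ± 232 in WT (SD, n = 3 each; -1.78, SE 0.28, edgeR adjusted p = 0.0008893), and -1.08 with the GC offset (SE 0.23, edgeR adjusted p = 0.00681). Egln3, a prolyl hydroxylase, had 0.948 ± 0.333 and 2.32 ± 0.174 CPM (-1.28, SE 0.32, edgeR adjusted p = 0.01385), a call lost without KO D2 replicate 1 (edgeR adjusted p = 0.0611). From D0 to D2 Hif1a rose by 2.80 in WT (SE 0.35) and by 1.34 in KO (SE 0.28), and with the GC offset by 2.87 and 2.09. Egln2 fell by 0.91 in WT (SE 0.20) and by 0.84 in KO (SE 0.18), where with the GC offset Egln2 stood at -0.18 and was not called (edgeR adjusted p = 0.433). Acod1, whose product itaconate inhibits succinate dehydrogenase, had 0 to 6 counts in each D0 library. Its D2 level was 9.36 to 18.9 CPM in WT and 14.9 to 33.1 CPM in KO, and the rise was called in both (edgeR adjusted p = 1.805e-06 and 1.686e-07). The succinate receptor gene Sucnr1 had 0 to 3 counts per library and was not tested.

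**Figure D5:**
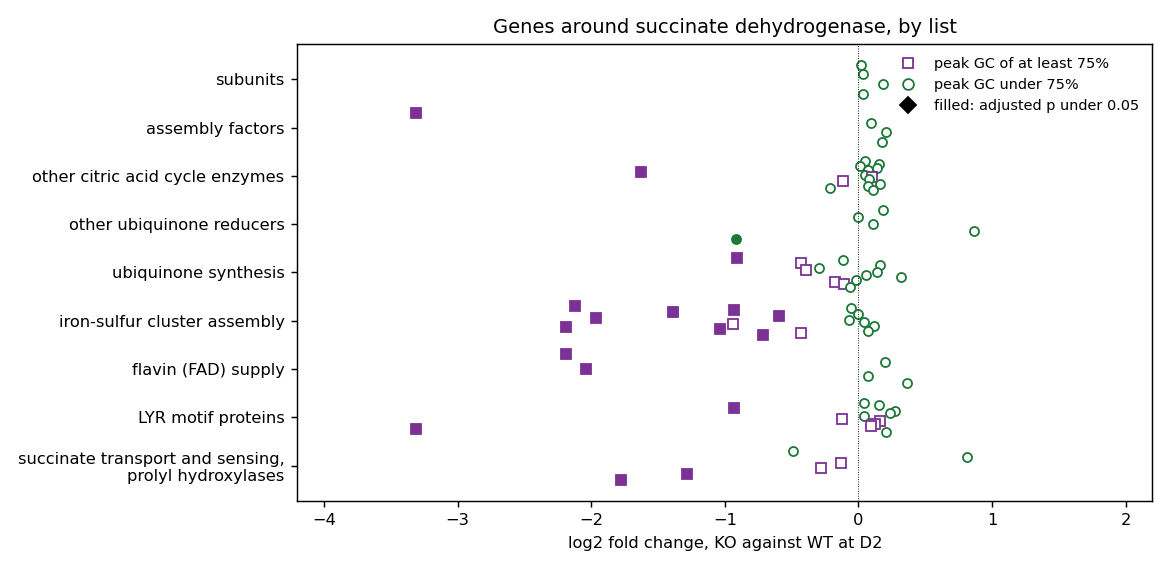
Log2 fold change of KO against WT at D2 for each gene of the 9 lists, with squares for transcripts with a window of at least 75% G or C, circles for the others, and filled marks for an edgeR adjusted p under 0.05. The subunits lie between 0.02 and 0.18, and the called genes of the iron-sulfur and flavin lists are all squares.

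The genes whose log2 CPM over the 11 libraries was most like that of each gene were ranked among the 9104 other genes that averaged 5 CPM or more (9105 for Sdhaf3, which itself lies under that level). For Sdhb these were Uqcrc2, a core subunit of complex III (Pearson r 0.997), Psma5 (0.996) and Ifi27l2a (0.996). For Sdhd they were Selenos (0.995), Hspa14 and Spcs2 (0.994 each), and for Sdhc Arpc3 (0.987), Sod1 (0.984) and Rpl10 (0.983). For Sdhaf1 they were Tent2 (0.987), Cdc16 and Fdx1 (0.984 each), whose transcripts peak at 79%, 81% and 79% G or C. For Sdhaf2 the most alike was Cenpc1 (0.994), for Sdha Tmem129 (0.951), for Sdhaf3 Amn1 (0.960) and for Sdhaf4 Cebpzos (0.889). Spcs2 and Cebpzos also peak at 75% and 76% G or C, while Sdhd and Sdhaf4 themselves peak at 65% each. The 11 points share their libraries, groups and GC trend, and the values describe likeness only. Within the complex, r was 0.979 between Sdhb and Sdhd, 0.941 between Sdhb and Sdhc, 0.595 between Sdha and Sdhb, and -0.319 between Sdhaf1 and Sdhb.

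Some neighbours on the chromosome lie within 100 bases. Timm8b, an import chaperone of mitochondria, starts or ends 52 bases from Sdhd and rose with it, by 1.01 in WT (SE 0.18, edgeR adjusted p = 0.000394) and 0.97 in KO (SE 0.16, edgeR adjusted p = 0.000149). Ccdc127 lies 77 bases from Sdha and rose by 0.62 in WT (SE 0.13, edgeR adjusted p = 0.00128) and 0.81 in KO (SE 0.12, edgeR adjusted p = 4.8e-05), while Sdha was not called. Cpsf7 lies 14 bases from Sdhaf2 in RefSeq, overlaps it over 94 exonic bases on the other strand in GENCODE, and was not called in any of the 5 comparisons.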

How the data were processed

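The deposited values are unnormalized counts, whole numbers keyed by Entrez ID, made by the authors. Per the submitters' processing notes, the tools include bcl2fastq 2.20.0.422, Trimmomatic 0.36, DESeq2 1.22.2 and Salmon 0.13.1 (also entered as 13.1), and mm10 is the build named; their roles and the annotation are not given in the sources used here, and the counts may be rounded estimates. Symbols came from RefSeq (GRCm38.p6), which matched 24387 of 24421 IDs; the other 34 made up no more than 0.0244% of any library.

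Counts were tested in R 4.3.3 with edgeR 4.0.16 (quasi-likelihood test, robust, TMM, filterByExpr; limma 3.58.1 loaded with it). All 11 libraries entered 1 fit of 4 group means, leaving 7 residual degrees of freedom, so that the 2 WT D0 libraries share the other groups' spread. Adjusted p (Benjamini-Hochberg) runs over all 13711 tested genes. Standard errors came from the F statistic, and 95% intervals from the t distribution with the fit's total degrees of freedom. CPM are TMM scaled, given as mean ± SD; floors use total counts and cover counting error only. Depth is the total count of each library.

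GC shares came from GENCODE M21 transcripts (GRCm38), available for 93.5% of tested genes. The GC offset was a lowess trend (span 0.3) of each library's counts with GC. The text names the 8 genes in every comparison, up to 2 called genes per list, direction and comparison with the smallest p (fewer are printed), the nearest tested neighbours, and the 3 most alike genes, of which it prints 1 to 3. Hif1a, Acod1 and the other list genes were taken by that rule; Sucnr1 and Chdh are named as not tested, and 1 gene that the rule names is not reported here. The genes, lists, tests and alternatives were chosen with earlier results of these data known. Alternatives were RLE scaling, the DESeq2 1.42.0 Wald test, other filters, fewer groups in the fit, replicate blocks, the GC offset and leaving out each library; for genes of the companion lists they were added after the data were seen. The scripts were tested on simulated data.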

Additional observations from a re-analysis of the deposited data

Results flagged for a closer look

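In 5 genes the test of the difference between the genotypes' D0 to D2 changes passed the threshold, among those reported here. Sdhaf1 gave -3.458 on the log2 scale (edgeR adjusted p = 0.02195). Of the companion lists, Idh2 gave -2.174 (edgeR adjusted p = 0.009265), Bola3 -2.168 (0.009265), Slc25a32 -1.63 (0.02771) and Rfk -1.855 (0.03164). All 5 transcripts hold a GC-rich segment, and in all 5 the change was lower in KO. Neither trait is particular to them. Over all genes 801 were called (5.84%), of which 784 were lower, and 709 of these held a GC-rich segment. The share lower was 13.4% of genes with such a segment and 0.879% of those without one. Without WT D0 replicate 2, which left 1 library in WT D0, Idh2 stood at -2.00, Bola3 at -2.15, Slc25a32 at -1.60 and Rfk at -1.72. With the GC offset Sdhaf1 (-2.70), Slc25a32 (-1.17, edgeR adjusted p = 0.0961) and Rfk (-1.16, edgeR adjusted p = 0.0978) were not called. The calls on Slc25a32 and Rfk were each lost in 8 of the 11 fits that left out 1 library, and that on Sdhaf1 in 7. Those on Idh2 and Bola3 were each lost in 1.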

How the results depend on the processing

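For the 8 genes, 755 values were recomputed under other settings. Of these, 735 kept their direction where called and their side of the threshold, 17 fell short of it, 3 passed it and 0 reversed; 62 values that were not called changed sign. The count of the 8 genes called in the difference between genotypes was 1, and 0 with the GC offset, and ran from 0 to 1 over the fits without 1 library. Sdhaf1 from D0 to D2 in WT passed the threshold with the replicate block across days (1.33, edgeR adjusted p = 0.00116), with the GC offset (1.13, edgeR adjusted p = 0.0361) and without WT D2 replicate 1. Sdhaf2 in KO was not called with a filter of at least 5 mean CPM (0.22, edgeR adjusted p = 0.106), which left Sdhaf3 untested. Of 1043 values for the named genes of the companion lists, 983 kept their call, 59 lost it and 1 reversed, Rfk from D0 to D2 in KO (0.058 with the GC offset, edgeR adjusted p = 0.83, against -0.74).

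Over all genes, RLE scaling moved the median log2 fold change from D0 to D2 in KO from -0.201 to -0.0929 and that of the difference from -0.0427 to 0.0609. The 21 genes called at D0 became 38 with DESeq2, 11 with the filter of 5 mean CPM, 4 with only the compared groups and 4 to 22 without 1 library. The 801 genes called in the difference became 495 with RLE scaling, 141 with the GC offset, 1858 with the replicate block across days and 4 to 1436 without 1 library. Fits without a WT D0 library leave 1 there, which is assumed to vary like the other groups.

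Pairing by replicate number was checked from the libraries' deviations from their group means. The correlation between KO and WT libraries of the same number was 0.178, 0.166 and 0.0945 on D2 (the last 0.114 with a prior count of 2), and 0.0303 and 0.377 on D0. The 2 WT D0 libraries deviate from their mean as mirror images, so the D0 values are not independent. These values do not settle the pairing. The labels do not give it, so the main fit did not take the numbers as pairs. On D2 each of the 6 libraries correlated best with the one of its own number, a hint from the data and not from the design. On D0, WT replicate 2 correlated best with KO replicate 1 (0.344), and WT replicate 3 with KO replicate 3 (0.377). With the replicate block within a day, 3444 genes were called at D2 (2207 without), 201 at D0 (267 with the GC offset as well) and 2616 in the difference (2189 with the offset). Sdhaf1 stood at -3.22 at D2 (edgeR adjusted p = 2.45e-05) and at -3.65 in the difference (edgeR adjusted p = 0.00039), and the count of the 8 genes called was 1, 0 and 1, as without the block.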
